A study of Homo sapiens with 2 samples.

Results

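The galectins are a family of sugar-binding proteins, and 9 genes were described here in cells given an siRNA (small interfering RNA) that targets YY1 and in cells given a control siRNA. They comprised 8 galectin genes (LGALS1, LGALS2, LGALS3, LGALS4, LGALS8, LGALS9, LGALS9B and LGALS9C) and LGALS3BP, which encodes a glycoprotein that galectins bind. The genes were chosen by symbol as a family, with earlier results of the same arrays in view. Their differences are therefore given as a description, and nothing is read from them as a test. All 9 were found among 17687 named genes, each through 1 probe set (called a probe here).

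The siYY1 cells were SW48 cells, an established human colorectal cancer line, transfected with a single siRNA against the zinc finger transcription factor YY1. The siControl cells were the same line given a non-targeting siRNA. Both siRNAs were used at 5 nmol/L with a lipid reagent, and RNA was taken after 3 days of culture and hybridised to a whole-transcript GeneChip. There was 1 array for siYY1 and 1 for siControl, so no difference below has a replicate check or a p-value, and 1 siRNA sequence cannot tell loss of YY1 apart from an effect of that siRNA on other transcripts. YY1 mRNA was not analysed here, which leaves the extent of its knockdown unknown. Values are the deposited ones, taken as log2, and differences are siYY1 minus siControl on that scale.

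Galectins recognise beta-galactoside sugars on glycoproteins and glycolipids through a conserved carbohydrate-recognition domain. They are made in the cytosol, leave the cell without a signal peptide, and crosslink glycoproteins at the surface into lattices. Inside the cell they bind the lumenal sugars that are exposed when a lysosome or endosome ruptures. Prototype galectins (LGALS1, LGALS2) carry a single such domain, the chimera galectin LGALS3 joins one to a flexible tail, and tandem-repeat galectins (LGALS4, LGALS8, LGALS9 and its copies) carry a pair joined by a linker. In gut epithelium, galectin-4 takes part in the apical delivery of glycoproteins and galectin-3 is abundant. Galectin-9 is inducible by interferon in several cell types and binds the T cell receptor TIM-3.

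LGALS9 and its near-identical copies LGALS9B and LGALS9C were the members that differed most, all higher in siYY1. LGALS9 itself was 5.83-fold higher, LGALS9C 2.71-fold and LGALS9B 2.22-fold, all at dim probes for which the size of the fold is uncertain. LGALS9, LGALS9B and LGALS9C lie on chromosome 17, and their promoters are shown because the copies are so alike that signal from one may appear on the probe of another. The promoters are from RefSeq (GRCh38.p14) and run from 250 bases before to 50 bases after the listed transcription start. Capitals mark the bases at which LGALS9 differs from LGALS9B or LGALS9C in pairwise alignment. LGALS9 is at chr17:27630938-27631237 on the plus strand, LGALS9B at chr17:20467490-20467789 on the minus strand and LGALS9C at chr17:18476539-18476838 on the plus strand, each written along its own gene.
LGALS9: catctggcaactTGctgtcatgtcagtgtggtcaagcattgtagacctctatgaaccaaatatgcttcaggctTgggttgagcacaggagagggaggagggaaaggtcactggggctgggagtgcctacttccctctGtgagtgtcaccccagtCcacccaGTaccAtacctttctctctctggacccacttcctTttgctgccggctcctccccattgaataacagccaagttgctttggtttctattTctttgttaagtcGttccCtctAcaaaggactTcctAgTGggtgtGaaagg
LGALS9B: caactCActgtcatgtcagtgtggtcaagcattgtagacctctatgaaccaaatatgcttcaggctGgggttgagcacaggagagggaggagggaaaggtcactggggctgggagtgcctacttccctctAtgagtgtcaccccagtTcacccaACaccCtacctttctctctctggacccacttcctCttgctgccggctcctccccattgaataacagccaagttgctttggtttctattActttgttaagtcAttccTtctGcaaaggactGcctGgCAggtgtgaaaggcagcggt
LGALS9C: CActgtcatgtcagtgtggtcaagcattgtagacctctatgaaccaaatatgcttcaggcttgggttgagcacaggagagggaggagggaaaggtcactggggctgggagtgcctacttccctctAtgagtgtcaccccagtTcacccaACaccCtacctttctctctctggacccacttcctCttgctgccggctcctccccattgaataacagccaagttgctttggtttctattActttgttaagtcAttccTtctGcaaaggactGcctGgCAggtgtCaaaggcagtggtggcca

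Over 293 aligned bases, the promoters of LGALS9B and LGALS9 were 94.2% identical, with 17 differing bases. LGALS9C and LGALS9 also had 17 differing bases, over 288 aligned (94.1% identical). LGALS9B and LGALS9C were closer to each other, with 3 differing bases of 295 (99% identical). Upstream sequence of this kind says nothing of the probes themselves, whose sequences were not used here, so whether the LGALS9, LGALS9B and LGALS9C probes separate the transcripts was not tested.

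On the siYY1 array the LGALS9 probe read 8.33, against 5.79 on the siControl array, a difference of 2.54. Among all named genes, 1 had a larger difference in either direction, SLC2A3 (3.54), a glucose transporter gene named after its value was seen. The LGALS9C probe read 7.48 in siYY1 and 6.05 in siControl, a difference of 1.44, and 9 named genes lay above it. The LGALS9B probe read 7.77 in siYY1 and 6.61 in siControl, a difference of 1.15, and 34 named genes lay above it. The order of these differences was thus LGALS9, LGALS9C, LGALS9B, with no replicate to say whether neighbours in it differ. Because the copies may share signal, they may amount to a single measurement rather than 3.

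These probes were dim. Genes were kept for counting when the mean of both arrays reached 7.54, the median of all named genes, and LGALS9 (mean 7.06), LGALS9B (7.19) and LGALS9C (6.76) all missed it. On the siYY1 array alone, LGALS9 and LGALS9B were above that value and LGALS9C was not. In siControl, LGALS9, LGALS9B and LGALS9C were all below it. A set of 349 olfactory receptor genes, taken after the values were seen as genes that a colon line should mostly lack, gave a second yardstick. Their 95th percentile was 5.56 in siYY1 and 5.61 in siControl, and their highest value was 7.13 in siYY1 and 7.60 in siControl.

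Against that yardstick, LGALS9 in siYY1 lay 2.77 above the 95th percentile, while in siControl it lay 0.18 above. LGALS9C lay 1.93 above in siYY1 and 0.44 above in siControl, and LGALS9B lay 2.21 above in siYY1 and 1.01 above in siControl. The differences of LGALS9, LGALS9B and LGALS9C all exceeded 0.93, the largest absolute difference of any olfactory receptor gene, whereas that of LGALS1 (0.79) did not. This is not a test of noise, since the copies were already known to differ widely and most olfactory receptor genes are dimmer than them. Among all named genes, 72 had a larger absolute difference than LGALS9B. Of the olfactory receptor genes, 21 (6.02%) lay past 1.5-fold on the high side. No detection call came with the arrays, and a siControl signal at or near background would make these folds uncertain in size. If values under the filter are raised to it before the difference is taken, LGALS9 is 0.80 higher (1.74-fold), LGALS9B 0.23 higher, and LGALS9C gives no difference.

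**Figure D1:**
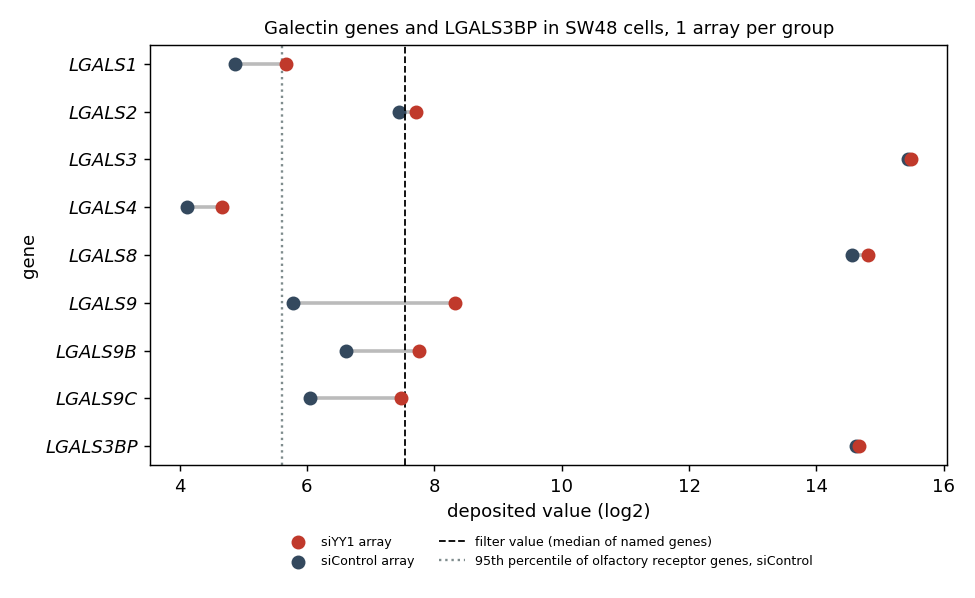
Deposited log2 value of each galectin gene and of LGALS3BP on the siYY1 array (red) and the siControl array (dark blue), 1 array per group and no error bars. The dashed line is the filter at 7.54 and the dotted line the 95th percentile of olfactory receptor genes in siControl (5.61). LGALS9, LGALS9B and LGALS9C show the widest gaps, while LGALS3, LGALS8 and LGALS3BP sit near the right edge with little gap.

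Of the prototype galectins, LGALS1 encodes a widely secreted galectin that is abundant in mesenchymal cells. It read 5.67 in siYY1 and 4.87 in siControl, a difference of 0.79 or 1.73-fold. The siYY1 value was 0.11 above the 95th percentile of olfactory receptor genes and the siControl value was under it, so LGALS1 was near the floor on both arrays. With values raised to that percentile on each array, its difference shrank to 0.06. In all, 224 named genes had a larger positive difference than LGALS1, and 138 of them were, like it, under the filter. LGALS2, a galectin best known from the gut epithelium, read 7.71 in siYY1 and 7.44 in siControl, a difference of 0.27, and its mean of 7.58 placed it just inside the filter although its siControl value was below.

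The chimera galectin gene LGALS3 was bright and nearly equal, at 15.49 in siYY1 and 15.44 in siControl, a difference of 0.05. Its glycoprotein ligand gene LGALS3BP read 14.66 in siYY1 and 14.63 in siControl, a difference of 0.04. Whether bright signals were compressed on these arrays was not tested, so the small differences of LGALS3, LGALS3BP and the also bright LGALS8 do not show that these transcripts were stable.

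Among the other tandem-repeat galectins, LGALS4, the galectin of differentiated enterocytes, read 4.66 in siYY1 and 4.11 in siControl. Its difference of 0.55 fell just short of 1.5-fold (1.47-fold), and both values were under the 95th percentile of olfactory receptor genes. At that level the difference cannot be read as a change in LGALS4. LGALS8, whose product marks ruptured endosomes for autophagy, was bright, at 14.81 in siYY1 and 14.56 in siControl, a difference of 0.25.

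Taken over the family, all 9 differences were above 0, with the LGALS9 copies counted separately and with LGALS3 (0.05) and LGALS3BP (0.04) close to 0. Their median of 0.55, against 0.01 over all named genes, is the value of LGALS4, which cannot be read as a change. With a median of 0.01 over all named genes, a positive sign by itself was common. Without the filter, 4 of the 9 lay past 1.5-fold on the high side in siYY1 (LGALS1, LGALS9, LGALS9B and LGALS9C) and 0 on the low side. With LGALS9 and its copies counted as 1 measurement, 2 lay on the high side. Of all named genes, 3.98% lay past 1.5-fold on the high side and 3.9% on the low side. LGALS9, LGALS9B and LGALS9C were at least 2-fold higher, as were 0.441% of all named genes and 0.509% of the 8843 genes under the filter. The 4 members past the filter, LGALS2, LGALS3, LGALS8 and LGALS3BP, had differences between 0.04 and 0.27 and a median of 0.15, against 0.00 over the 8844 genes kept. On a filter of the brighter array, chosen after seeing the data, LGALS9 and LGALS9B enter and are past 1.5-fold, but both pass it only through siYY1, where they are high. Of the 8969 genes on that filter 3.22% were past 1.5-fold on the high side, and of the 125 that only it admits, 16%. None of the 4 past the filter on the mean was 1.5-fold higher or lower, where 3.04% of the genes kept were higher and 3.78% lower by that amount.

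**Figure D2:**
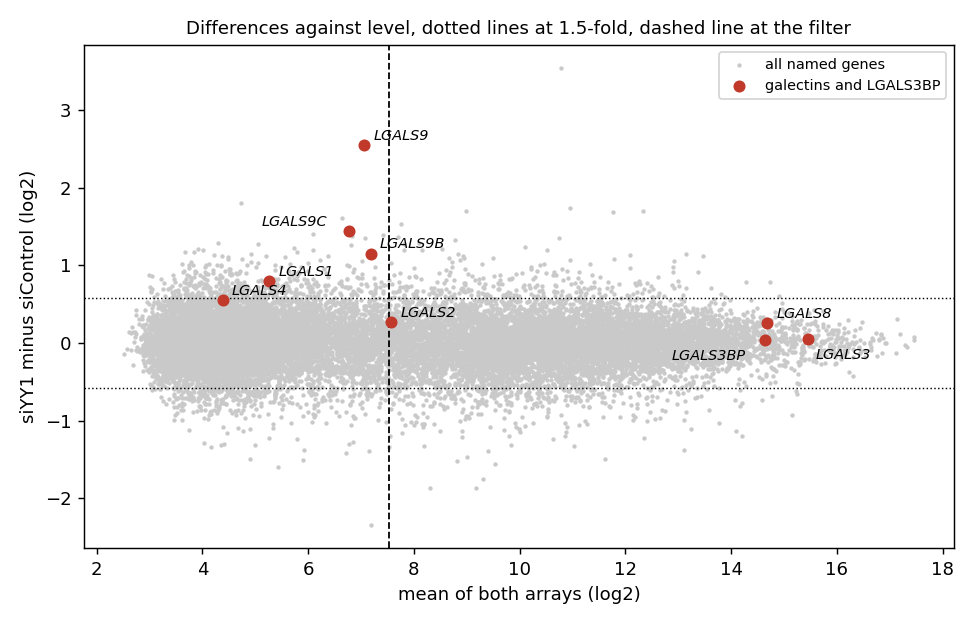
Difference of siYY1 minus siControl (log2) against the mean of both arrays (log2) for all 17687 named genes (grey) and for the galectins and LGALS3BP (red). Dotted lines mark 1.5-fold and the dashed line the filter. LGALS9 (2.54) stands apart from the grey cloud, LGALS9C and LGALS9B lie at its upper edge, and the bright members LGALS3, LGALS8 and LGALS3BP lie near 0.

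For each member past the filter, the genes whose pair of values was nearest were listed as a measure of likeness over 2 arrays. They were GPCPD1, DPH6 and CLP1 for LGALS2, and EIF4H, HNRNPH3 and POLR2J for LGALS3. They were RAD23B, MRFAP1 and HACD3 for LGALS8, and CDC123, STIP1 and CTSD for LGALS3BP. The distances in log2 units were 0.02 to 0.04 for LGALS2, 0.03 to 0.05 for LGALS3, 0.01 to 0.05 for LGALS8 and 0.03 for LGALS3BP. A likeness over so few arrays carries little information.

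The genes next to the LGALS9 copies on chromosome 17 were then read. They were the nearest 2 coding genes on each side that had a value, 12 in all, chosen after the values of the copies were seen. Beside LGALS9, KSR1, a scaffold of the ERK pathway, differed by 0.41 and NOS2, the inducible nitric oxide synthase gene, by -0.35. Farther out, WSB1 differed by -0.09 and LYRM9 by -0.53. Beside LGALS9B, SPECC1 differed by 0.35 and CDRT15L2 by -0.36, and farther out AKAP10 differed by 0.42 and USP22 by -0.02. Beside LGALS9C, EVPLL differed by 0.29 and TBC1D28 by 0.65, and farther out SMCR8 differed by 0.42 and FBXW10 by 0.70. TBC1D28 (4.46 in siYY1 and 3.81 in siControl) and FBXW10 (5.19 in siYY1 and 4.49 in siControl) were past 1.5-fold at values below the olfactory 95th percentile on both arrays. Since the copies were among the most different of all named genes and the neighbours were picked afterwards, these values are a description only.

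**Figure D3:**
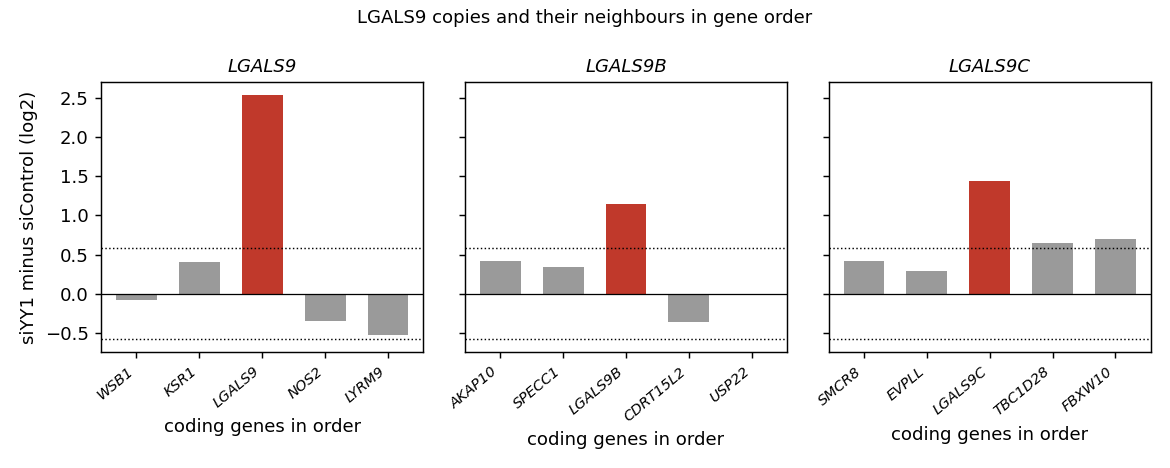
Difference of siYY1 minus siControl (log2) for LGALS9, LGALS9B and LGALS9C (red) and for the nearest 2 coding genes with a value on each side (grey), in gene order and not to distance, with dotted lines at 1.5-fold. The copies stand at 2.54, 1.15 and 1.44, and their neighbours between -0.53 and 0.70.

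Promoters of 8 members were in the RefSeq table (10 promoters, 3 of them for LGALS8), and LGALS1 had none there. The YY1 core motif CCATNTT, searched on both strands, was in 0 of the 10, and in 15.6% of all 35116 promoters of the same length. The interferon gamma-activated site TTCNNNGAA was also in 0 of the 10, and in 7.66% of all. The core of the interferon-stimulated response element, TTTC repeated after a gap of any 2 bases and searched on both strands, was in the promoters of LGALS9 and LGALS3BP, and in 3.57% of all. In LGALS9 the match runs from base 242 to base 251 of the printed sequence and includes 1 of the capitals, and the printed promoters of LGALS9B and LGALS9C hold no match. None of these motifs contains another. A match in so short a window is a description of letters and not a site.

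Most of the other galectin-domain genes gave little signal. Of 8 with a value (LGALS7, LGALS7B, LGALS12, LGALS13, LGALS14, LGALS16, LGALSL and CLC), only the galectin-related gene LGALSL, whose product lacks sugar binding, was past the filter. LGALSL read 11.60 in siYY1 and 12.25 in siControl, a difference of -0.65 or 1.56-fold lower, opposite in sign to all 9 members. The other 7 had differences from -0.28 (LGALS13) to 0.22 (LGALS12), all under 1.5-fold. LGALS7 and LGALS7B, another pair of near-identical copies, differed by -0.20 and -0.09.

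Galectin binding depends on the sugars that glycosyltransferases build, so lists of these enzymes were read next. For this and the later lists, the share of all genes kept past 1.5-fold was 3.04% higher and 3.78% lower. Of 22 genes of N-glycan branching and poly-N-acetyllactosamine synthesis, 17 were past the filter, with 12 above 0, 5 below 0 and a median of 0.10. MGAT1, which starts the conversion of high-mannose to complex N-glycans, read 8.83 in siYY1 and 8.04 in siControl (difference 0.79), and was the only one past 1.5-fold. SLC35A2, the UDP-galactose transporter, was at the low end (-0.39). MGAT5, which makes the branch that galectin-3 prefers, differed by 0.20 and is named outside the rule. In the mucin-type O-glycan list, 8 of 13 were past the filter with a median of 0.04, and GALNT1, an initiating transferase, was 0.62 higher, while GALNT12 differed by -0.51.

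Sialic acid caps can block galectin binding. Of 13 sialylation genes with a value, 7 were past the filter, with a median of -0.03. GNE, the rate-limiting enzyme of sialic acid synthesis, read 10.32 in siYY1 and 11.25 in siControl, a difference of -0.93 or 1.90-fold lower. SLC35A1, which carries CMP-sialic acid into the Golgi, read 10.26 in siYY1 and 10.89 in siControl, a difference of -0.63. Both were past 1.5-fold lower and 0 of the 7 past 1.5-fold higher, beside 3.78% and 3.04% of the genes kept. Of the 7, 3 were above 0 and 4 below 0, so the list had no common direction. CMAS, which activates sialic acid, lay at the other end at 0.33.

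Of 33 glycoproteins reported as galectin ligands, 25 were past the filter, with 12 above 0, 13 below 0 and a median of -0.01. CEACAM5, carcinoembryonic antigen, read 12.42 in siYY1 and 13.80 in siControl (difference -1.38). The receptor kinase gene MET (-0.69) and the hemidesmosomal integrin gene ITGB4 (-0.66) were also past 1.5-fold lower. In the other direction, LRP1, an endocytic receptor, read 9.95 in siYY1 and 9.08 in siControl (difference 0.87), and the integrin beta-1 gene ITGB1 read 14.67 in siYY1 and 13.89 in siControl (difference 0.78). The lysosomal glycoprotein genes LAMP1 (0.30) and LAMP2 (0.32) differed less. For galectin-9, the TIM-3 receptor gene HAVCR2 was dim at 4.18 in siYY1 and 4.48 in siControl, CD44 differed by -0.32, and the surface protein disulfide isomerase gene P4HB differed by -0.01. LAMP1, LAMP2, HAVCR2, CD44 and P4HB are named outside the rule for their known tie to galectins.

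Among partners in the response to damaged lysosomes, 17 of 21 were past the filter, with 9 above 0, 8 below 0 and a median of 0.04. RRAGB, a Rag GTPase that recruits mTORC1 to lysosomes, was higher by 0.63 and the autophagy receptor gene OPTN by 0.59. MAP3K7, the kinase TAK1, was lower by 0.61, at 10.86 in siYY1 and 11.46 in siControl. CALCOCO2, the autophagy receptor that binds galectin-8, read 12.79 in siYY1 and 12.29 in siControl (difference 0.50), and TRIM16, the galectin-3 partner, differed by -0.06. CALCOCO2 and TRIM16 are also named outside the rule.

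Interferon-inducible genes were read because LGALS9 and LGALS3BP belong to that response in many cells. Of 35 with a value, 21 were past the filter, with 14 above 0, 7 below 0 and a median of 0.09. IRF9, a subunit of the interferon-activated complex ISGF3, was the only one of these 21 past 1.5-fold, at 8.79 in siYY1 and 8.10 in siControl (difference 0.69). Without the filter, 4 of the 35 were past 1.5-fold higher and 0 lower, beside 3.98% and 3.9% of all named genes. The others were BST2, which tethers virions to the cell (4.66 in siYY1 and 3.76 in siControl), the ubiquitin-like gene ISG15 (5.99 in siYY1 and 5.30 in siControl) and OASL (4.69 in siYY1 and 3.99 in siControl). BST2 differed by 0.90, ISG15 by 0.70 and OASL by 0.69, all at dim probes. BST2 and OASL lay under the olfactory 95th percentile on both arrays, where a difference cannot be read as a change. ISG15 lay under it in siControl. LGALS9 lay above it on both arrays, but by only 0.18 in siControl. Among the 21 past the filter, OAS3 was at the low end (-0.29), and the 7 below 0 went no lower. IFI6 (0.58), MX1 (0.57), PSMB9 (0.51) and OAS1 (0.46) were higher in siYY1 but short of 1.5-fold. They are named outside the rule, because the larger differences of these 21 were thus on the high side. Of the enterocyte apical glycoproteins and raft markers, 5 of 19 were past the filter, with a median of -0.02. The brush border peptidase gene DPP4 read 9.44 in siYY1 and 10.54 in siControl (difference -1.11), and the caveolin gene CAV1 13.08 in siYY1 and 13.77 in siControl (difference -0.69). Under the filter, the adhesion gene CEACAM1 had the widest gap of the 19, at 5.15 in siYY1 and 6.65 in siControl (difference -1.50, 2.84-fold lower). Its siYY1 value lay under the olfactory 95th percentile, so the size of that fold is uncertain. CEACAM1 is named outside the rule, for its size.

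**Figure D4:**
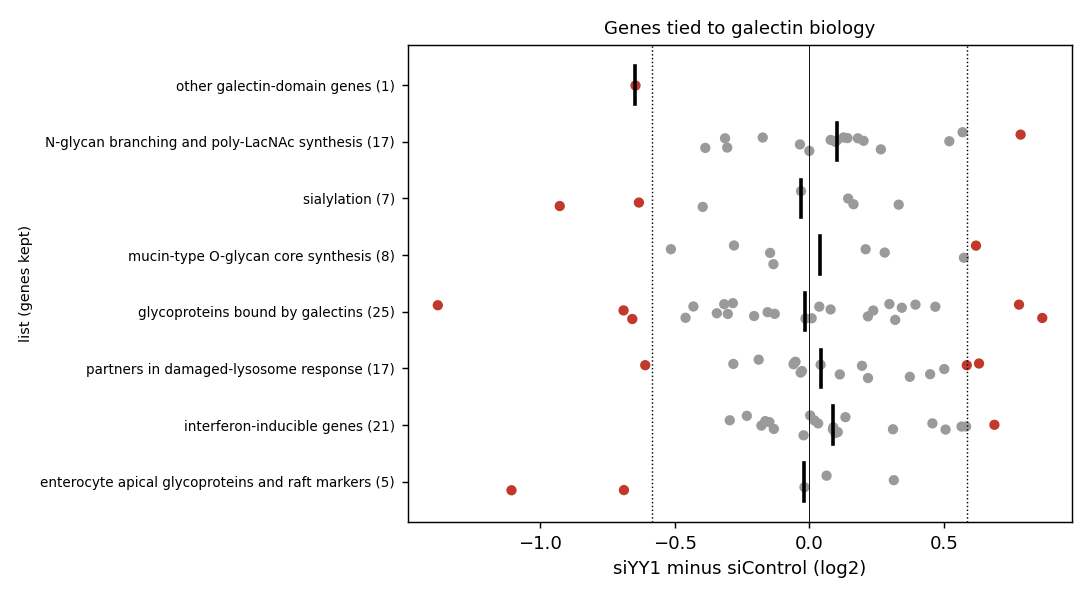
Difference of siYY1 minus siControl (log2) of each gene past the filter in 8 lists tied to galectin biology, with the number of such genes in brackets, the median as a black bar and genes past 1.5-fold (dotted lines) in red. Medians lie near 0, apart from the single gene LGALSL, and the outlying genes named in the text lie on both sides.

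The arrays carried most of the markers chosen for the labelled line. Of 13 colorectal epithelium markers with a value, 10 were past the filter, CDX2 and CDH17 among them, with a median difference of 0.00 and 0 past 1.5-fold. VIL1 (5.68 in siYY1 and 6.04 in siControl), GPA33 (5.55 and 5.26) and CDX1 (3.73 and 4.12) were under it. Markers of cell types that express LGALS1 or LGALS9 strongly were mostly dim. Of 8 fibroblast, 10 leukocyte and 6 endothelium markers, 1, 1 and 0 were past the filter, namely COL1A2 (0.45) and CD68 (-1.08). The leukocyte gene CD68 read 7.64 in siYY1 and 8.72 in siControl, past 1.5-fold lower. The defining fibroblast gene COL1A1 read 4.70 in siYY1 and 4.97 in siControl, and the leukocyte gene PTPRC 5.35 in siYY1 and 4.91 in siControl. Median levels were 4.61 in siYY1 and 4.77 in siControl for the fibroblast list, 5.57 and 5.43 in siYY1 and siControl for the leukocyte list, and 4.34 and 4.51 in siYY1 and siControl for the endothelium list. Under the filter, the lysozyme gene LYZ (6.35 in siYY1 and 5.37 in siControl, difference 0.98) and the endothelial gene PECAM1 (difference 0.76) were past 1.5-fold higher. CDH5 (-0.62) was past 1.5-fold lower. LYZ and PECAM1 thus went in the same direction as LGALS1 and LGALS9, and CD68 and CDH5 in the opposite direction. PECAM1 and CDH5 lay under the olfactory 95th percentile on both arrays, and LYZ lay under it in siControl. Both samples were labelled as SW48 cells, a single line, and any part of other cells in the values of LGALS1 and LGALS9 was not tested. The reference genes ACTB and GAPDH differed by 0.11 and -0.03, and the 11 reference genes had a median of -0.03.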

How the data were processed

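Expression in SW48 cells was measured on 1 array for siYY1 and 1 for siControl, grouped by sample title. Each probe has a single summarized value as the authors deposited it, used here as log2, a unit read from the values (2.32 to 17.97 in siYY1 and 2.46 to 17.90 in siControl). The processing of the arrays and the log base were not given in the sources used here. Sorted values of siYY1 and siControl differed by no more than 0.153, so the arrays had nearly the same distribution.

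Of 21448 probes, 17709 had 1 gene symbol in GEO's platform annotation, and updating through RefSeq (GRCh38.p14) changed 0. Probes of a gene were averaged, and genes with a mean of at least 7.54 were kept (8844). With 1 array per group, a rule of 1.5-fold took the place of a test. The members and gene lists were chosen with earlier results of these data known. Named genes were all members, each list's kept genes past 1.5-fold or at its ends, the nearest 3 genes by values, ACTB and GAPDH, with exceptions marked. Under an alternative, a value inside 1.5-fold counted as moved beyond 0.27, the robust SD of kept differences. Promoters were aligned with free end gaps. Python 3.11.15 was used with numpy 2.4.6, pandas 2.3.3, statsmodels 0.14.6, Biopython 1.88 and matplotlib 3.10.9.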

Additional observations from a re-analysis of the deposited data

How the results depend on the processing

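The filter on dim genes decided how many galectin genes were counted. With the filter on the mean of both arrays, 0 of 4 members were at least 1.5-fold higher. Without a filter the count was 4 of 9 and the median difference moved to 0.55, since the 5 dim members entered, of which LGALS4 is itself that median and LGALS1, LGALS9, LGALS9B and LGALS9C make up the count. With a filter on the brighter array, chosen after seeing the data, the count was 2 of 6 (LGALS9 and LGALS9B), but both pass that filter only through siYY1, where they are high. The largest fold among the 4 members was 1.21 (LGALS2). Their count stayed at 0 with a lower threshold, with 2-fold, quantile normalization, median centring, lowess centring (fraction 0.3) and the brightest probe. A filter at the 75th percentile left 3 members, without LGALS2, and the count was again 0. The count of members at least 1.5-fold lower was 0 in every alternative run. Under quantile normalization, median centring, lowess centring and the brightest probe, the difference of LGALS9 stayed between 2.52 and 2.54, that of LGALS9C between 1.41 and 1.44, that of LGALS9B between 1.13 and 1.15 and that of LGALS1 between 0.75 and 0.79. All 36 such values of the 9 members kept their direction and their side of 1.5-fold. Much of this was fixed in advance. Each member had 1 probe, so its brightest-probe value equals the main value, and median centring subtracts the same 0.0028 from every gene. No paired analysis was possible because each group had 1 array.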
